A study of Mus musculus with 16 samples.

Results

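The 10 genes described here mark T cells and cytotoxic lymphocytes: Cd3d, Cd3e, Cd3g, Cd4, Cd8a, Foxp3, Gzmb, Prf1, Nkg7 and Klrd1. They were taken by symbol, as every row of the transcript table whose RefSeq accession maps to one of these names, which gave 20 rows of 130343 and 10 symbols of 35565. Adipose tissue (AT) came from 8 male wild-type C57BL/6J mice, an inbred laboratory strain. 4 lean mice ate a normal laboratory diet and 4 obese mice ate a high-fat diet, with 42% of its kilocalories from fat and 0.2% cholesterol, for 12 to 14 months from an age of 10 weeks. Inguinal subcutaneous adipose tissue (SAT, left and right pads pooled within a mouse) and mesenteric visceral adipose tissue (VAT) of every mouse were sequenced as poly(A) RNA, which gave 4 groups of 4 libraries. Diet and obesity cannot be told apart in this design, and whole pads hold adipocytes, vessels, immune cells and any lymphoid tissue dissected with them.

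T cells recognize antigen through a receptor that signals through the CD3 chains, which Cd3d, Cd3e and Cd3g encode. CD8 marks the T cells that kill, CD4 the helper T cells, and the transcription factor Foxp3 the regulatory T cells. Killing by CD8 T cells and natural killer (NK) cells uses granules that hold perforin (Prf1), granzyme B (Gzmb) and the granule membrane protein Nkg7, and Klrd1 encodes CD94, a receptor of NK cells and some CD8 T cells. In fat, regulatory T cells are known to be common in the visceral depots of lean mice, and CD8 T cells to gather there in obesity.

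In GRCm39 coordinates of GENCODE, Cd3g (chr9:44880870-44891735, minus strand), Cd3d (chr9:44893083-44899173, plus strand) and Cd3e (chr9:44910037-44920925, minus strand) lie side by side. Cd4 (chr6:124841655-124874758, minus strand), Cd8a (chr6:71350411-71356157, plus strand) and Klrd1 (chr6:129568677-129575738, plus strand) share chromosome 6. The others are Foxp3 (chrX:7439883-7461484, plus strand), Gzmb (chr14:56496295-56499717, minus strand), Prf1 (chr10:61133546-61140461, plus strand) and Nkg7 (chr7:43086497-43087678, plus strand).

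RefSeq promoter windows, 250 bases before to 50 bases after a start, were at hand for 8 of the 10 members, and 4 are shown. Cd3g, Nkg7 and Gzmb are the members with the most counts, and Cd3d is the neighbor read in the opposite direction from Cd3g, with 1355 bases between their starts. The windows come from RefSeq on GRCm38.p6, and each had 1 exact match in GRCm39, at chr9:44891680-44891979 (minus strand), chr9:44892834-44893133 (plus strand), chr7:43086312-43086611 (plus strand) and chr14:56499742-56500041 (minus strand). Capitals mark matches, on either strand, to 8 motifs named for factor families that are known in lymphocytes, whose letters are spelled out after the windows.
Cd3g: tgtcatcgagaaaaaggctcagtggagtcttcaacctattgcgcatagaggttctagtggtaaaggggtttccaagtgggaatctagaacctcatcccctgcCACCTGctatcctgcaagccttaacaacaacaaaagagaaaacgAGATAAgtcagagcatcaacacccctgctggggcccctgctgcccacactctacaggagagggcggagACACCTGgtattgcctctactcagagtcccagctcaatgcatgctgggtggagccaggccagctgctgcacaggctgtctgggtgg
Cd3d: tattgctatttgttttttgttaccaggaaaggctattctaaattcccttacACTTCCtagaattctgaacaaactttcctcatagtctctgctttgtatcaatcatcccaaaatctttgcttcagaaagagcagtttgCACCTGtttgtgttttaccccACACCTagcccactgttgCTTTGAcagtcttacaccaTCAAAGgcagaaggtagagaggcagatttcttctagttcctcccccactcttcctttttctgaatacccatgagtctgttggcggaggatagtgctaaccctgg
Nkg7: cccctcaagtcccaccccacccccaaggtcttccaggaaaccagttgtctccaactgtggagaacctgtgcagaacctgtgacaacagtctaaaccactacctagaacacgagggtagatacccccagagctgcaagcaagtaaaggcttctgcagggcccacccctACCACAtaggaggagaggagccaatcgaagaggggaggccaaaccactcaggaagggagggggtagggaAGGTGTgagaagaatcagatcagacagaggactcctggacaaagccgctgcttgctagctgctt
Gzmb: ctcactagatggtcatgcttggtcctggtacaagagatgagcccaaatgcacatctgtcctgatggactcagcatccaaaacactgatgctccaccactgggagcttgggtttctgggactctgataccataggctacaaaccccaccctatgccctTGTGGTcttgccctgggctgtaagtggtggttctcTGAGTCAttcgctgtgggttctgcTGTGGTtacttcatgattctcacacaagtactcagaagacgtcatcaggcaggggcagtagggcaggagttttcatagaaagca

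The RUNX letters, TGTGGT, stood in the windows of the granule genes Gzmb, Nkg7 and Prf1, 3 of 8 members, and in 16.8% of all 32851 windows of the table. Gzmb had them at both -93 and -34, with the letters TGANTCA of AP-1 between them at -58, where position counts from the start and names the leftmost base as printed. The windows of Cd3d, Cd3e, Cd3g and Prf1, 4 of 8, and 20.2% of all windows held CAGGTG, a form of the E-box. AGGTGT, one arm of the T-box, stood in those of Cd3d, Cd3e, Cd3g, Nkg7 and Prf1, 5 of 8, and in 13.7% of all. In Cd3g, Cd3e and Prf1 the E-box and T-box letters overlapped in 1 stretch. ETS, searched as GGAAGT, matched in 3 of 8 members (23.8% of all windows). The GATA form AGATAA matched in 2 members (11.2% of all). TCF/LEF, searched as CTTTGA, matched in 1 (16% of all), AP-1 in 1 (7.81%) and the palindrome of CRE, TGACGTCA, in 0 (1.79%). The Cd8a window held none of the 8. These matches describe the letters and are not binding sites.

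Library depth bore directly on these genes, because most had few counts. Total counts were 4604460 to 11897722 in lean SAT, 10828758 to 16614407 in obese SAT, 1256082 to 15802634 in lean VAT and 2247737 to 11615347 in obese VAT. In the shallowest library, lean VAT 1, a count of 0 allows a level of up to 2.39 CPM (counts per 1000000 library counts), taken as 3 counts before TMM scaling, against 0.190 CPM in the deepest lean VAT library. This limit, like every interval on counts here, covers counting error only. In all, the 10 members held 4314 counts over the 16 libraries, and 86.0% of them lay on Cd3g, Gzmb and Nkg7, the 3 members with a single row in the table.

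The other 7 members were spread over 2 or 3 transcript rows each and held 602 counts. Cd8a row NM_009857, Foxp3 row NM_054039, Prf1 row NM_011073 and Klrd1 rows NM_010654 and XM_006505656 were listed at 0 in all 16 libraries. Among 86 other T cell and cytotoxic genes in the table, 26 of 30 genes with a single row passed the filter on low counts, against 17 of 56 genes with several. Over all symbols, 28.1% of genes with a single row and 32.3% of those with several passed. Ptprc, which encodes the leukocyte antigen CD45, had 37 counts on 9 rows, and Cd247, the CD3 zeta chain, had 41 counts on 8 rows. Low counts of Cd3d, Cd3e, Cd4, Cd8a, Foxp3, Prf1 and Klrd1 were therefore not read as low expression, and levels were not compared between genes. Whether the counting of reads shared between transcripts contributed was not tested.

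The CD3 chain Cd3g and the granule genes Nkg7 and Prf1 rose in obese against lean VAT, by 2.39-fold, 3.25-fold and 4.77-fold. Cd8a was called as well, at 3.36-fold, but it entered the test only through obese VAT, the group where it is high. Those 4 were all that passed of the 6 members tested (edgeR's quasi-likelihood F test over 13288 transcript rows, Benjamini-Hochberg adjusted p below 0.05), and the background was 6.84% of all rows called higher in obese VAT. Cd3g, Nkg7 and Gzmb exceeded 1 CPM in libraries of every group, whereas Cd8a and Cd3e would not have passed the filter on low counts without obese VAT, with 4 and 3 libraries above 1 CPM there, 1 and 2 in lean VAT and 0 in SAT. Prf1 exceeded 1 CPM in 4 obese VAT, 1 lean VAT and 2 obese SAT libraries. The count of 4 is for that reason a description and not support. Levels in bulk tissue do not tell more cells from more RNA per cell.

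**Figure D1:**
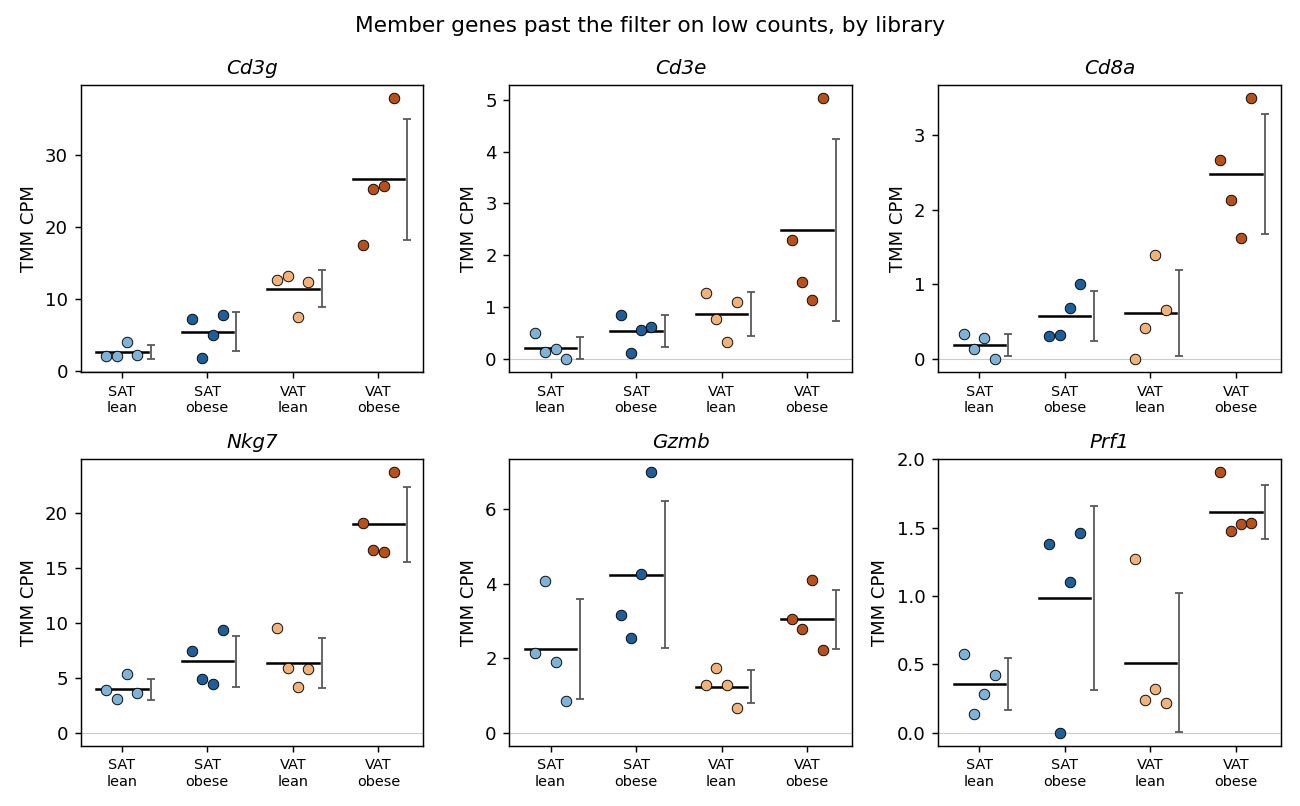
TMM-normalized CPM (y axis) of the 6 members past the filter on low counts in each library, by tissue and diet (x axis). Points are libraries, in replicate order from left to right, black lines are means and gray bars are the SD of 4 libraries. All 4 obese VAT libraries lie above all 4 lean VAT libraries for Cd3g, Cd8a, Nkg7, Gzmb and Prf1, and the groups overlap for Cd3e.

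Cd3g had the most counts of the 10 members. Its level in TMM-normalized CPM was 12.7, 13.2, 7.59 and 12.4 in lean VAT and 17.6, 25.3, 25.8 and 38.0 in obese VAT (means 11.5 ± 2.62 and 26.7 ± 8.43, SD, n = 4 each). Every obese VAT library lay above every lean one, and the lowest lean value belonged to mouse 3. This was a log2 fold change of 1.25 (SE 0.30, edgeR adjusted p = 0.00809). Without obese mouse 4 the adjusted p was 0.0498, and in gene sums without that mouse it was 0.0521.

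Cd3e stood at 1.27, 0.775, 0.321 and 1.10 CPM in lean VAT and at 2.29, 1.48, 1.15 and 5.04 CPM in obese VAT. The groups overlapped, and obese mouse 4 alone held 59 counts. The fitted row of Cd3e, NM_007648, had a log2 fold change of 1.35 (SE 0.63, edgeR adjusted p = 0.194), and the gene sum had 1.64 (SE 0.58, edgeR adjusted p = 0.0668), so that neither passed. Without obese mouse 4 the value of the row was 0.58.

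Cd8a, the CD8 alpha chain, was found at 0, 0.417, 1.39 and 0.661 CPM in lean VAT and at 2.67, 2.14, 1.62 and 3.5 CPM in obese VAT. Here the groups did not overlap, although 3 lean libraries had 7 counts or fewer, and the count of 0 in lean VAT 1 allows more than the level of obese mouse 3. The fitted log2 difference of Cd8a was 1.75 (SE 0.52, edgeR adjusted p = 0.0305), a value that the filter favored and that is given as a description. The call was lost without lean mouse 2 (adjusted p = 0.139), lean mouse 4 (0.0780), obese mouse 2 (0.0587) or obese mouse 4 (0.142).

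Among the granule genes, the 4 lean VAT libraries gave 9.55, 5.90, 4.17 and 5.83 CPM of Nkg7 and the obese ones 19.1, 16.6, 16.4 and 23.7 CPM (means 6.36 ± 2.27 and 19.0 ± 3.40, SD, n = 4 each). The lowest obese library lay well above the highest lean one. The log2 fold change was 1.70 (SE 0.26, edgeR adjusted p = 1.45e-04), the smallest adjusted p among the members in this comparison.

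For Gzmb, lean VAT gave 1.27, 1.73, 1.28 and 0.661 CPM, and obese VAT gave 3.06, 2.79, 4.11 and 2.22 CPM. These groups did not overlap either, yet the log2 fold change of 1.24 (SE 0.43, edgeR adjusted p = 0.0645) did not pass. Without lean mouse 2 it did (adjusted p = 0.0432).

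Prf1, the pore-forming protein of the granules, was at 1.27, 0.238, 0.321 and 0.220 CPM in lean VAT, where lean mouse 1 had only 2 counts. It was at 1.91, 1.48, 1.53 and 1.54 CPM in obese VAT, a narrow range above all lean libraries. On the log2 scale Prf1 rose by 2.25 (SE 0.69, edgeR adjusted p = 0.0353). Leaving out any one mouse other than lean mouse 1 or obese mouse 2 lost this call, with adjusted p between 0.0660 and 0.134.

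Over the 6 members tested, 5 had all obese VAT libraries above all lean ones (Cd3e did not), and 8.35% of all rows tested did. Because Cd8a entered the test only through obese VAT, nothing is read from the 5 against that share. At the fold limit that the study's methods used, a log2 fold change of 1.5, Cd8a, Nkg7 and Prf1 were beyond it and Cd3g was not. Of all 13288 rows, 310 were called higher beyond this limit, and here too the members are a description and not support.

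In SAT the same 6 genes had higher fitted levels in obese than in lean mice, but none passed the test. By edgeR 0 of 6 were called (background 6.21% of all rows higher in obese SAT). The unadjusted p was below 0.05 for 4 of 6, and for 3340 of all 13288 rows in either direction. DESeq2 called 1, Cd3g, and 920 of all 13288 rows higher. In SAT 0 of 6 members had groups that did not overlap (background 9.61%).

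Cd3g was at 2.14, 2.10, 4.08 and 2.33 CPM in lean SAT and at 7.21, 1.90, 5.09 and 7.84 CPM in obese SAT. 3 obese libraries lay above every lean one and obese mouse 2 lay below them. The log2 fold change was 1.04 (SE 0.35, edgeR adjusted p = 0.0574), and it passed without obese mouse 2 (adjusted p = 0.0109) or without lean mouse 3 (0.0295).

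Gzmb ranged from 0.848 to 4.07 CPM in lean SAT and from 2.53 to 7.0 CPM in obese SAT (log2 fold change 0.90, SE 0.37, edgeR adjusted p = 0.129). It passed without lean mouse 2 (adjusted p = 0.0459), which held the highest lean value. Nkg7 ranged from 3.09 to 5.32 and from 4.40 to 9.30 CPM (0.69, SE 0.26, edgeR adjusted p = 0.0961).

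Prf1 was at 0.576, 0.140, 0.285 and 0.424 CPM in lean SAT and at 1.38, 0, 1.10 and 1.46 CPM in obese SAT. Obese mouse 2 again stood apart, with a count of 0, which allows up to 0.277 CPM before TMM scaling. The log2 fold change was 1.43 (SE 0.65, edgeR adjusted p = 0.166), and without that mouse it passed (adjusted p = 0.0396). Cd8a (log2 fold change 1.35, SE 0.67) and Cd3e (1.4, SE 0.83) rested on 0 to 13 counts a library and did not pass (edgeR adjusted p = 0.212 and 0.308). Without lean mouse 1, which held 6 of the 7 counts of the Cd3e row in lean SAT, the log2 fold change of Cd3e was 3.26 (adjusted p = 0.0872).

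Whether VAT responded more than SAT was tested directly, as the diet response in VAT minus that in SAT. By edgeR 0 of 6 members were called (background 0.888% of all rows higher), and DESeq2 called 0. An unadjusted p below 0.05 was found for 1 of 6, and for 1950 of all 13288 rows in either direction. That 1 was Nkg7, whose response was larger in VAT by a log2 value of 1.01 (95% interval 0.35 to 1.68, edgeR adjusted p = 0.13). For Cd3g the difference was 0.33 (95% interval -0.54 to 1.19), and for Gzmb it was 0.38 (-0.63 to 1.39). The intervals of Cd8a (-1.91 to 2.5), Prf1 (-1.54 to 2.71) and Cd3e (-2.73 to 1.34) were wider still, so that these libraries do not show whether the diet responses of the tissues were alike.

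**Figure D2:**
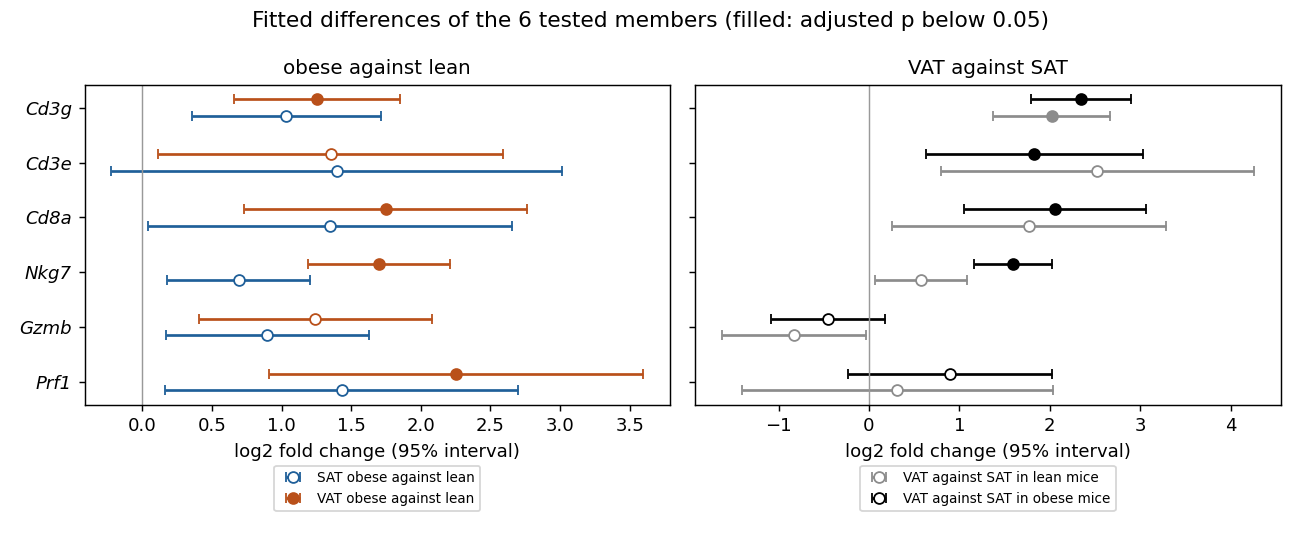
Log2 fold changes from the fit of transcript rows (x axis) of the 6 members tested (y axis), with approximate 95% intervals. The left panel shows diet within each tissue, and the right panel VAT against SAT within each diet. The intervals use a normal approximation and can exclude 0 where the F test gives an unadjusted p above 0.05. Filled points passed an adjusted p of 0.05. On the left all points lie above 0 and the 4 filled ones belong to VAT, and on the right Gzmb alone lies below 0 in both diets.

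VAT and SAT of the same mouse were compared with the mouse as a block. Cd3g was higher in VAT in both diets, whereas Gzmb had lower fitted levels in VAT and passed in neither. In lean mice 1 of 6 members was called higher in VAT, Cd3g (background 7.98%). In obese mice 4 of 6 were, Cd3g, Cd3e, Cd8a and Nkg7 (background 15.9%). Cd3e and Cd8a had 0 SAT libraries above 1 CPM and entered the test through VAT, so this count too is a description and not support.

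Cd3g was higher in VAT in 4 of 4 lean mice and 4 of 4 obese mice. The log2 fold change was 2.02 in lean mice (SE 0.33, edgeR adjusted p = 1.18e-04) and 2.35 in obese mice (SE 0.28). Neither pair of groups overlapped, which 8.86% of all rows tested matched in lean and 15.1% in obese mice.

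Nkg7 was higher in VAT in 3 of 4 lean mice, by a log2 value of 0.58 (SE 0.26, edgeR adjusted p = 0.153). It was higher in 4 of 4 obese mice, by 1.59 (SE 0.22), where it passed. Cd8a followed the same order, with log2 fold changes of 1.76 in lean mice (SE 0.77, edgeR adjusted p = 0.138) and 2.06 in obese mice (SE 0.52, edgeR adjusted p = 0.00395).

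Row NM_007648 of Cd3e had 2.53 (SE 0.88, edgeR adjusted p = 0.0576) in lean and 1.83 (SE 0.61, edgeR adjusted p = 0.0270) in obese mice. The latter call was lost without obese mouse 2 (adjusted p = 0.132) or obese mouse 4 (0.261).

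The granule effectors Gzmb and Prf1 passed in neither diet. Gzmb was lower in VAT in 4 of 4 lean mice and 3 of 4 obese mice, with log2 fold changes of -0.83 (SE 0.41, edgeR adjusted p = 0.194) and -0.45 (SE 0.32, edgeR adjusted p = 0.319). Prf1 differed by 0.31 (SE 0.88) in lean mice and 0.89 (SE 0.58) in obese mice (edgeR adjusted p = 0.867 and 0.265).

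Cd3d, Cd4, Foxp3 and Klrd1 stayed under the filter of more than 1 CPM in at least 3 libraries, so their levels were compared between diets by an exact two-sided permutation test, whose smallest p for 4 against 4 is 0.0286. Cd3d, a CD3 chain, was at 0, 0.656, 0.214 and 0.330 CPM in lean VAT and at 0.382, 2.05, 0.573 and 2.39 CPM in obese VAT. These groups overlapped (exact permutation p = 0.114).

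Cd4, the helper T cell coreceptor, was at 0, 0.0596, 0 and 0.110 CPM in lean VAT and at 0.764, 0.247, 0.286 and 0.256 CPM in obese VAT. Its groups did not overlap (exact permutation p = 0.0286, the smallest possible), but the lean libraries held 0 or 1 count and the obese ones 2 or 3. A count of 0 in lean VAT 1 allows more than any of the obese values, so a difference was not resolved at this depth. In SAT, Cd4 had counts in 1 lean and 1 obese library.

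Foxp3 had 0 or 1 count in each lean VAT library and 0, 4, 6 and 0 counts in the obese ones (exact permutation p = 0.429). In SAT it had 0 to 3 counts a library (exact permutation p = 0.714). Klrd1 had at most 6 counts in any library (exact permutation p = 0.657 in VAT and 0.83 in SAT). Neither the regulatory T cell factor nor the NK receptor could be compared between diets at these counts.

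**Figure D3:**
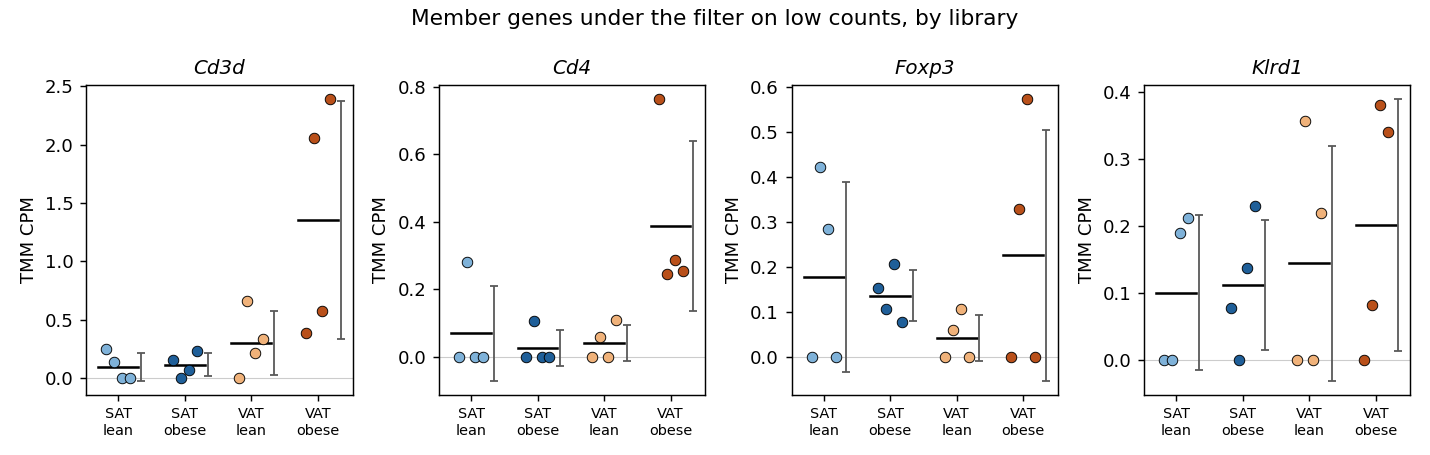
TMM-normalized CPM (y axis) of the 4 members under the filter on low counts in each library, by tissue and diet (x axis), with means (black lines) and the SD of 4 libraries (gray bars). Many libraries lie at 0, and only Cd4 has all obese VAT libraries above all lean VAT libraries, on 2 or 3 counts each.

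Other genes of the same cells were followed in lists, with counts summed per gene. Genes of these lists that are low elsewhere could pass the filter through obese VAT alone, so the counts and medians of every list are a description and not support. Of 34 listed genes of the T cell receptor complex and signaling, 12 were tested, and 9 rose in obese VAT (median log2 fold change 1.30, against -0.02 over all 10707 genes tested, of which 7.48% were called higher). They included Pdcd1, the inhibitory receptor PD-1 (2.55, SE 0.48), the homing receptor Ccr7 (2.13, SE 0.42), the adhesion receptor Cd2 (1.28, SE 0.26) and the adaptor Lcp2 (1.13, SE 0.17). In SAT 4 of 12 rose (median 0.92, background 6.66% of genes higher), namely Ubash3a, Il2rg, Lcp2 and Cd8b1, the CD8 beta chain (1.29, SE 0.41). VAT exceeded SAT for 7 of 12 in lean mice (median 1.61, background 9.35%) and 11 of 12 in obese mice (median 2.25, background 17.1%), and 0 of 12 were called by edgeR for the difference in diet response (background 0.887%), of which the smallest adjusted p, 0.15, belonged to Ccr7.

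Of 26 other NK cell and cytotoxic genes, 15 were tested and 8 rose in obese VAT (median 1.49, background 7.48%). The chemokine Ccl5 rose by 1.86 (SE 0.32), the granule protease inhibitor Cst7 by 1.57 (SE 0.31), the transcription factor Tbx21 by 1.49 (SE 0.30) and Tyrobp by 1.76 (SE 0.20). Tyrobp encodes the adaptor DAP12, which macrophages use as well. In SAT 4 of 15 rose (median 0.99, background 6.66%), among them the granzyme Gzmk (2.93, SE 0.76) and Tbx21 (1.25, SE 0.28). Granzyme genes differed in their depot: Gzmk was higher in VAT of lean mice (3.69, SE 0.66), whereas Gzma was lower there (-1.21, SE 0.30). Of the 15 tested genes 3 were higher in VAT of lean mice (background 9.35% of all genes) and 1 was lower (background 7.68%). In obese mice 9 were higher in VAT (background 17.1%) and 1 was lower (background 15.8%). Tyrobp was the 1 gene of the list called for a larger diet response in VAT (1.04, SE 0.25, background 0.887%).

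The companions of Foxp3 in regulatory T cells gave 2 higher of 8 tested in obese VAT (median 0.89), the transcription factor Batf (1.55, SE 0.32) and the receptor Tnfrsf4 (1.92, SE 0.61), and 0 of 8 in SAT by edgeR (background 7.48% and 6.66% of all genes higher). Tnfrsf4 had means of 0.268 to 0.323 CPM in the other groups and 1.37 CPM in obese VAT, the group through which it entered the test. Of 11 tested helper T cell regulators and receptors, 3 rose in obese VAT (median 1.21, background 7.48%). These were the chemokine receptors Cxcr3 (1.48, SE 0.26) and Cxcr5 (1.21, SE 0.36) and Tbx21, which is also in the cytotoxic list. Cxcr5 was higher in VAT than in SAT by 4.40 in lean and 4.56 in obese mice. These values lay closer to those of the B cell gene Ms4a1 (4.65 and 5.48) than to those of Cd3g (2.03 and 2.32 in gene sums). Which cells held Cxcr5 was not tested. In SAT Tbx21 and Cxcr3 rose (1.25, SE 0.28 and 1.30, SE 0.30, background 6.66%).

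Markers of other cells moved with the same contrasts. The adipocyte marker Adipoq was at means of 4097 to 6110 CPM in the 4 groups. Over 6 leukocyte genes the summed level was 148 to 219 CPM in lean SAT, 289 to 376 in obese SAT, 285 to 446 in lean VAT and 784 to 1415 in obese VAT, and 5 of 5 tested rose in obese VAT (background 7.48% of all genes higher). Of 10 tested macrophage markers 9 rose in obese VAT and 6 in SAT (background 6.66%), and their sum was 2562 to 3311 CPM in lean VAT and 5719 to 8101 CPM in obese VAT. Of 7 tested dendritic cell genes 4 rose in obese VAT (background 7.48%). Of 8 adipocyte genes 5 were lower in obese VAT and 2 in obese SAT (background 5.65% and 5.31% of all genes lower).

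Genes of the gut and pancreas lists were also present in VAT, but the pancreas list was not particular to it. The intestinal epithelium list summed to 71.2 and 61.6 CPM in lean VAT of mice 2 and 4, against 18.6 to 30.7 CPM in the SAT libraries and 18.9 to 26.0 CPM in the other VAT libraries. Of its 6 tested genes 2 fell in obese VAT (background 5.65% of all genes lower), the secreted lectin Zg16 (-4.22, SE 0.79) and the mucin Muc2 (-1.42, SE 0.41). Both were higher in VAT than in SAT of lean mice (2.83, SE 0.71 and 1.17, SE 0.35). Of the 3 tested genes of the pancreas list 1, the elastase Cela1, rose in both obese VAT and obese SAT (background 7.48% and 6.66% of all genes higher). Cela1 was lower in VAT than in SAT, by log2 values of -1.18 (SE 0.13) in lean and -1.14 (SE 0.13) in obese mice. The whole pancreas list summed to 71.1 to 208 CPM in SAT and 41.0 to 91.2 CPM in VAT. The lipase Pnlip was at 0 in all SAT libraries and at means of 1.65 and 0.325 CPM in lean and obese VAT. The 1 skeletal muscle gene tested passed in no comparison. The part of these tissues in the results of the members was not tested.

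The level of each single-row member was also divided by the summed level of the 6 leukocyte genes, a comparison chosen after the data were seen. Most of this sum came from Laptm5 and Cd53 (means 569 and 281 CPM in obese VAT), and little from Ptprc (0.767 CPM). It does not weigh all leukocytes alike. The log2 ratio of Cd3g in VAT was -5.29 ± 0.344 in obese and -5.03 ± 0.183 in lean mice (SD, n = 4 each, exact permutation p = 0.171). For Nkg7 it was -5.74 ± 0.161 and -5.91 ± 0.249 (SD, n = 4 each, exact permutation p = 0.257). For Gzmb in VAT, and for all 3 genes in SAT, the exact permutation p was 0.600 or more. Relative to these leukocyte genes the diet groups thus overlapped for each of the 3 genes in both tissues. Gzmb had a lower ratio in VAT than in SAT, by a log2 value of -1.73 in lean and -1.97 in obese mice (exact permutation within mice, p = 0.125 each, the smallest that 4 mice allow). The same difference was 1.13 and 0.84 for Cd3g (exact permutation p = 0.25 each) and -0.35 and 0.02 for Nkg7 (exact permutation p = 0.375 and 0.625).

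Lymphoid tissue markers separated the depots. The lymph node stroma and venule list summed to 4.21 to 21.0 CPM in SAT and 77.1 to 269 CPM in VAT, and the B cell list to 9.40 to 21.2 CPM in SAT and 48.5 to 529 CPM in VAT. Mean levels in lean and obese VAT were 42.8 and 58.0 CPM for Ccl21a, the chemokine of lymph node venules and T cell zones, and 106 and 98.6 CPM for Cxcl13, that of B cell follicles. In SAT the means were 0.491 and 0.148 CPM for Ccl21a and 6.52 and 6.68 CPM for Cxcl13. The B cell gene Ms4a1 had 63.0 and 112 CPM in VAT and 2.41 and 2.37 CPM in SAT, and Cr2, spread over 7 rows with 20 counts in all, was not read.

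The lymph node list was also compared between diets in VAT. Of the 8 tested lymph node genes 2 rose in obese VAT (background 7.48%), Ccl19 (3.75, SE 0.74) and Ltb (1.39, SE 0.42), and Ccl21a did not pass (0.40, SE 0.22, edgeR adjusted p = 0.27). The sum of the list was 77.1 to 246 CPM in lean and 102 to 269 CPM in obese VAT, and that of the 10 members was 15.4 to 26.1 and 47.7 to 77.0 CPM. A large part of the list sum came from 1 gene, Cxcl13, whose SD was 64.4 CPM in lean and 66.2 CPM in obese VAT. The overlap of the list sum was therefore not read as a result about its other genes. Within lean VAT, mouse 3 was lowest for the members (15.4 CPM), for the lymph node list (77.1 CPM) and for the B cell list (48.5 CPM), and also for the leukocyte (285 CPM), macrophage (2562 CPM), dendritic cell (96.4 CPM), T cell receptor (121 CPM) and NK (82.2 CPM) lists. Much of the T cell receptor sum in lean VAT came from Thy1 and Lcp2 (means 62.3 and 44.2 CPM). Much of the NK sum came from Tyrobp and Serpinb9 (40.8 and 17.8 CPM). Of 9 tested B cell genes 4 rose in obese VAT (median 1.22, background 7.48%) and 1 in obese SAT (background 6.66%). The part of lymphoid tissue in the depot difference and in the diet response of the members was not tested.

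**Figure D4:**
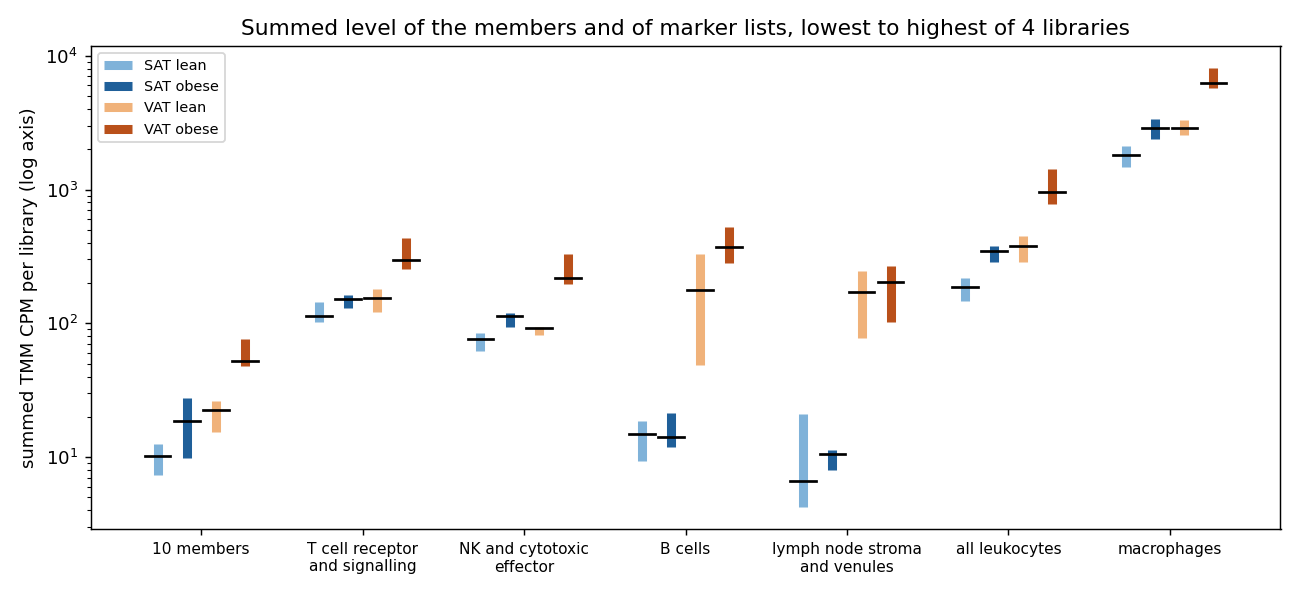
Summed TMM-normalized CPM per library (y axis, log scale) of the 10 members and of 6 marker lists (x axis). Bars run from the lowest to the highest of 4 libraries in each tissue and diet, and black lines are medians. For the B cell and lymph node lists every VAT library lies above every SAT library, and the members, the leukocytes and the macrophages are highest in obese VAT.

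Over the 16 libraries of 8 mice, the gene whose log2 CPM followed the mean of Cd3d, Cd3e and Cd3g most closely was Gimap7, a GTPase of lymphocytes (Pearson r = 0.959). Other close genes were Pycard (0.942), Xcr1 (0.941), Arhgap27os3 (0.936), A630023P12Rik (0.935), Gm11346 (0.934) and Bin2 (0.932). Pycard encodes the inflammasome adaptor ASC and Xcr1 a chemokine receptor of dendritic cells. Among the other members r was 0.876 for Nkg7, 0.776 for Cd8a, 0.641 for Prf1, 0.102 for Gzmb and -0.0572 for Foxp3. These values describe libraries that share tissue, diet and mouse.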

How the data were processed

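RNA of 16 mouse AT libraries (poly(A), directional kit) was processed by the authors with Trim Galore 0.6.6, HISAT2 2.2.0 on GRCm39 with RefSeq annotation, and HTSeq 0.13.5. The deposited table holds raw read counts per transcript and CPM, which the authors computed as counts over the library total. How reads shared between transcripts were counted, and the strand setting, are not given in the sources used here. 82.0% of rows, with 98.9% of counts, matched a symbol by RefSeq accession, and unmatched rows could hold further transcripts of the members.

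Rows above 1 CPM in at least 3 libraries (13288) were fitted with edgeR 4.0.16 (TMM, quasi-likelihood F test, R 4.3.3), 1 mean per group for diet, and the mouse as a block for tissue and for the difference in diet response. Benjamini-Hochberg adjustment ran over all rows. The fit of gene sums covered 10707 genes. CPM in the text are per gene, divided by TMM-scaled totals. DESeq2 1.42.0 was an alternative. The code was tested on simulated counts.

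Groups came from the titles. Separate mice are the replicates. By design, mouse numbers pair SAT with VAT of 1 animal. The data show this pairing weakly: deviations correlated by -0.00900 to 0.173 over the 8 mice, by -0.154 to 0.121 between different mice of a diet, and by -0.0942 to 0.173 for the same number in the other diet, which is another animal. No libraries of a group agreed within sampling noise.

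All 10 members are named, from each list at most 4 genes per comparison by adjusted p plus defining markers, and the 8 genes most like the CD3 mean. Some genes under this rule are not reported here. Members and lists were chosen with earlier results of these data known.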

Additional observations from a re-analysis of the deposited data

Results flagged for a closer look

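In 7 of 40 groups of 4 libraries, 1 library lay far from the other 3 by Dixon's ratio. Chance gives such a gap in about 1 of 20 groups of continuous values, a rate that does not hold for counts near 0, where 3 libraries at 0 and 1 above give the highest ratio by construction. Cd3g stood at 4.08 CPM in lean SAT mouse 3, above the other lean SAT libraries, and at 7.59 CPM in lean VAT mouse 3, below the other lean VAT libraries, so that this mouse was highest in one depot and lowest in the other. The remaining 5 rest on few counts. Cd4 had 0.281 CPM (2 counts) in lean SAT mouse 2, 0.106 CPM (1 count) in obese SAT mouse 2 and 0.764 CPM (2 counts) in obese VAT mouse 1. Prf1 had 1.27 CPM (2 counts) in lean VAT mouse 1 and 1.91 CPM (5 counts) in obese VAT mouse 1, and these are the shallowest libraries of their groups.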

How the results depend on the processing

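Cd3g and Nkg7 stayed called in VAT under each of 17 alternatives, with log2 fold changes of 1.03 to 1.36 and 1.54 to 1.82, but the highest adjusted p of Cd3g was 0.0498, and gene sums without obese mouse 4, a combination added after the data were seen, lost its call (0.0521). Without a filter on low counts, and with DESeq2, 1 member was called in SAT (Cd3g) and 2 between depots in lean mice (Cd3e and Cd3g). The fit with no filter also called 5 members in VAT, with Cd3e added, and 5 between depots in obese mice, with Cd3d added. Leaving out 1 mouse at a time gave 0 to 2 called members in SAT, 2 to 4 in VAT, 1 to 2 between depots in lean mice, 3 to 4 in obese mice and 0 for the difference in diet response. The numbers of lean and obese mice share no animal, and a replicate block on the number left 0 members called in SAT and 4 in VAT. Without the mouse pairing the depot comparisons called 1 in lean and 4 in obese mice. Leaving out the shallowest library, chosen after the data were seen, changed no count.

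Signs turned only for values that passed no test. Prf1 between depots in lean mice was -0.20 without the block, -0.00558 without the shallowest library and -0.00174 to 0.68 with 1 mouse left out. Gzmb between depots in obese mice was -0.665 to 0.0186 with 1 mouse left out. The difference in diet response was 0.19 for Cd3e in gene sums and -0.25 for Cd8a without the shallowest library. With 1 mouse left out it was -0.20 to 0.61 for Cd3g, -0.29 to 0.68 for Cd8a and -0.0183 to 0.96 for Prf1. The cause was not tested. Few counts limited Cd3d, Cd4, Foxp3 and Klrd1, and neither depth nor the counting of transcripts was tested as the reason.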
